A study of Bos taurus with 18 samples.

Results

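The genes described here are the protein components of telomerase, shelterin and the ATRX-DAXX chromatin pair. They are TERT and DKC1 for telomerase, TERF1, TERF2, TERF2IP, POT1, ACD and TINF2 for shelterin, and ATRX and DAXX as suppressors of ALT, the recombination route by which cells can keep telomeres without telomerase. They were chosen by gene name in the deposited count table, where each of the 10 names stood on 1 row, out of 24596 genes in all. By the labels, the 18 libraries came from fibroblasts of 2 cattle lines kept in long culture, 1 Simmental-like and 1 Holstein-like, with no genetic change or drug named. Each line had a primary culture (PBF-13 and PBF-15), a senescent stage (Sn-BF-13 and Sn-BF-15) and a spontaneously immortalized line (HUN-BF-13 and HUN-BF-15), with 3 libraries each. Each immortalized group is 1 named line, and the labels give no age. In the count table the Simmental-like primary columns are headed BDF-20-3B-4. The senescent columns there are headed BDF-20-MultiXray-Ctrl, and the immortalized ones BF-13, so stage and named culture cannot be told apart. The Holstein-like columns are headed BEF for primary, BF-15-P9 for senescent and BF-15-P23 for immortalized libraries, each marked Rerun. The primary libraries thus bear another culture name in that line also, and what was rerun is not stated.

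Telomeres are repeats at chromosome ends that shorten with each division unless they are rebuilt. Telomerase rebuilds them: TERT is its reverse transcriptase, and DKC1 holds and stabilises the RNA template and also serves in ribosomal RNA modification. Shelterin coats the repeats, keeps them from being read as breaks and controls the access of telomerase, and most somatic cells of large mammals carry shelterin but little or no TERT. ATRX and DAXX place histone H3.3 at telomeric repeats, and their loss is a known mark of ALT tumours.

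Simmental-like libraries held 18.2 to 23.2 M counts (M for 1e+06) and Holstein-like ones 1.42 to 14.1 M. A set of 10 fibroblast genes took 4.21% to 6.70% of the counts of each Simmental-like library, and sets for muscle, heart, liver, kidney, endothelium, blood and epithelium took at most 0.00156%. In the Holstein-like line the fibroblast set took 0.0725% to 0.647% in 8 of 9 libraries, below every Simmental-like value, which goes against the fibroblast label. Stages were therefore compared in the Simmental-like line, and the Holstein-like libraries were read singly. Simmental-like primary library 1 stood apart, with a TMM factor of 0.726 against 0.873 to 1.16 in the other 8, and values without it are given beside the results it moves most. Unless stated otherwise, Simmental-like levels are CPM (counts per 1000000) after TMM scaling, a scaling that sets the typical gene level across libraries, and changes are log2 values with their SE. Total-count scaling moved the median change of all genes to 0.47 for senescent against primary, -0.16 for immortalized against senescent and 0.30 for immortalized against primary, so each direction was read under both scalings. In bulk RNA, fewer cells of a type and less RNA per cell cannot be told apart. Senescent libraries 1 and 2 differed by little over sampling noise (chi-square 1.34 per gene) and were also summed as an alternative. The libraries of a stage are called biological replicates in the labels, but separate cultures are not stated, so p-values measure the spread between libraries, which may be technical. All comparisons share 1 estimate of that spread, though the stages spread unequally. Chi-square per gene was 39.8 to 352 between primary, 1.34 to 3.8 between senescent and 6.32 to 23.2 between immortalized libraries. The primary spread thus also enters the SE and p of immortalized against senescent. Levels are compared between stages and not between genes, since transcript lengths were not used.

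TERT was at the edge of detection at every stage of the Simmental-like line, the immortalized one included. The 3 primary libraries had 0 counts each in 61.8 M counts together, which allows up to 3 counts or 0.0485 CPM (exact 95% Poisson upper bound 0.0597 CPM). The senescent libraries had 1, 1 and 0 counts, together 0.0338 CPM (exact 95% Poisson interval 0.0041 to 0.122). The immortalized libraries had 2, 0 and 0 counts, together 0.0345 CPM (0.00417 to 0.124). The intervals of the later stages overlap, both sums are under the floor of 3 counts, and no fold is given. A change of TERT between stages was not detectable at this depth. Intervals and floors cover counting error only. The telomerase RNA gene, TERC, was not matched in the table and is not analysed here.

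Of the 18 libraries, 1 stood above all others for TERT. It was Holstein-like immortalized library 2, with 60 counts or 5.46 CPM by column total (exact 95% Poisson interval 4.17 to 7.03). Holstein-like senescent library 3 followed with 8 counts (0.600 CPM, 0.259 to 1.18). The other Holstein-like libraries had 0 counts in all 3 primary and in senescent libraries 1 and 2, 1 count in immortalized library 1 and 2 counts in immortalized library 3. With 1.42 to 1.47 M counts, the Holstein-like primary libraries could hold TERT at up to 2.05 to 2.11 CPM without a count. The library with 60 counts was also the one in which 7 of 7 kidney genes were detected, at 0.863% of its counts, while its fibroblast set took 0.128%. In the other 17 libraries the kidney set took at most 0.000369%. Whether the kidney transcripts and the TERT counts share a source was not tested. Immortalized library 3, the Holstein-like library with the largest fibroblast share (6.69%), had 2 TERT counts. In that library endothelial genes took 0.498% and blood and immune genes 0.261%, against at most 0.00133% and 0.00156% in Simmental-like libraries. Proliferation genes took 0.00804% there, below the Simmental-like 0.0756% to 0.17%, so its fibroblast share alone does not mark it as cultured fibroblasts.

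**Figure D1:**
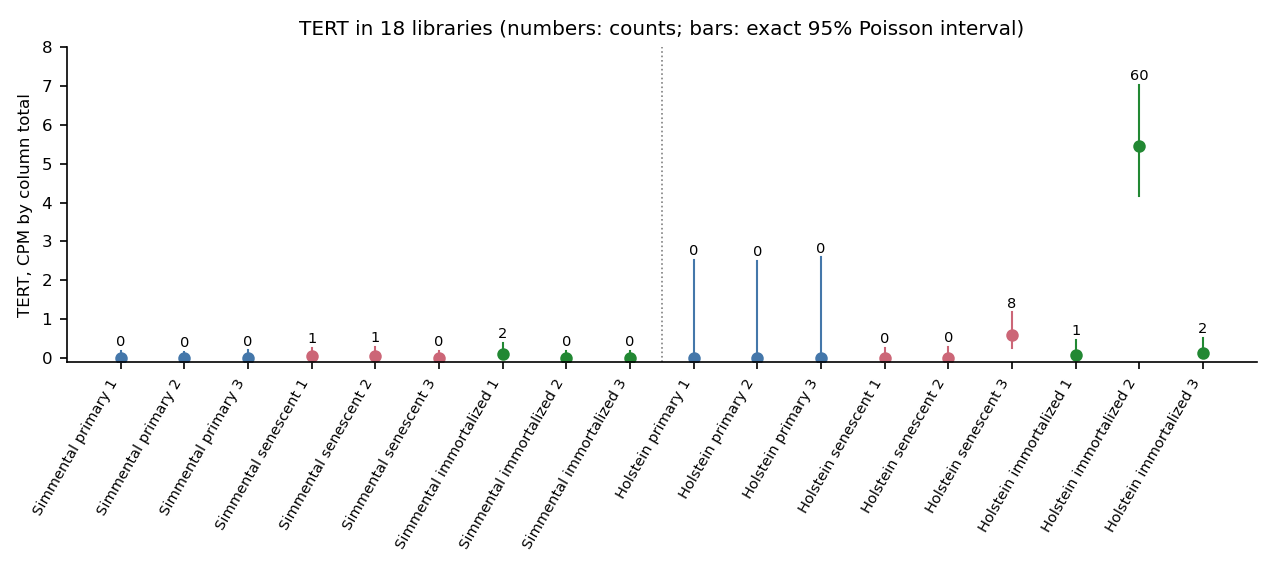
TERT in each of the 18 libraries. Points give CPM by column total, bars the exact 95% Poisson interval, numbers the counts, and colours the stage. The 9 Simmental-like libraries hold 0 to 2 counts each, and Holstein-like immortalized library 2 holds 60.

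DKC1, the other telomerase protein, was well detected, and whether it passed depended on the scaling: with TMM it passed in no Simmental-like comparison. It stood at 206, 128 and 138 CPM in the primary libraries, at 158, 164 and 160.0 in the senescent and at 177, 185 and 177 in the immortalized ones. Primary library 1 was the highest of the 9, and primary libraries 2 and 3 were the lowest. The log2 change was 0.03 ± 0.17 for senescent against primary (95% interval -0.35 to 0.41, adjusted p = 0.889) and 0.19 ± 0.17 for immortalized against primary (-0.19 to 0.57, adjusted p = 0.36). Without primary library 1 they were 0.26 (adjusted p = 0.00503) and 0.41 (adjusted p = 0.00038), both past the threshold. Total-count scaling gave 0.53 in both (adjusted p = 0.00361 and adjusted p = 0.00397). Immortalized against senescent gave 0.16 ± 0.17 (adjusted p = 0.492), and 0.15 (adjusted p = 0.0406) without primary library 1, and 0.00 under total-count scaling. It also passed as higher in the fit of the 6 libraries of these 2 stages alone.

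TERF1 and TERF2, the shelterin proteins that bind double-stranded repeats, were higher at both later stages than in the primary culture. TERF1, which limits telomere length and eases replication through the repeats, stood at 20.9, 33.8 and 28.2 CPM in primary, 45.7, 49.7 and 46.1 in senescent and 53.2, 53.7 and 51.2 in immortalized libraries. The 3 groups do not overlap. TERF1 rose by 0.77 ± 0.16 (1.7-fold, adjusted p = 0.00426) from primary to senescent and was 0.93 ± 0.16 (1.9-fold, adjusted p = 0.00168) above primary in the immortalized line. The step from senescent to immortalized did not pass (0.16 ± 0.16, adjusted p = 0.48) and was 0.00 under total-count scaling.

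TERF2 guards the chromosome end against fusion and helps fold it into the t-loop. Its levels were 20, 28.3 and 25.6 CPM in primary, 46.7, 49.4 and 49.5 in senescent and 44.3, 45.6 and 47.3 in immortalized libraries. Both later stages lie wholly above primary and overlap with each other. TERF2 rose by 0.98 ± 0.13 (1.97-fold, adjusted p = 0.00042) from primary to senescent, the largest change among the 9 tested members, and was 0.89 ± 0.13 (1.86-fold, adjusted p = 0.00065) above primary in the immortalized line. Immortalized against senescent was -0.09 ± 0.13 (95% interval -0.38 to 0.21, adjusted p = 0.654). The higher levels of TERF1 and TERF2 against primary did not rest on primary library 1: without it they were 0.59 and 0.84 for the senescent stage and 0.74 for either gene in the immortalized line, all past the threshold. Under total-count scaling both were larger, at 1.18 to 1.43. In RefSeq annotation (ARS-UCD2.0) the span of TERF2 overlaps NIP7, a ribosome assembly gene that changed by 2.09 ± 0.32 between primary and senescent (adjusted p = 0.00081). Overlap of their exons was not examined. With the strand setting not given, reads from a stretch that both share could not be told apart.

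TERF2IP, which is brought to telomeres by TERF2, stood at 39.1, 57.3 and 59.1 CPM in primary, 70.6, 64.6 and 67.2 in senescent and 64.7, 67.9 and 66.6 in immortalized libraries. Every later library was above every primary one, but primary library 1 lay far below the other primary libraries. The change did not pass for senescent against primary (0.38 ± 0.15, adjusted p = 0.06) or for immortalized against primary (0.36 ± 0.15, adjusted p = 0.0825). Without primary library 1 the values were 0.20 (adjusted p = 0.0268) and 0.17 (adjusted p = 0.0591), so the size fell by over 1.5 times while the senescent call appeared. It appeared also without primary library 2 (0.45) or 3 (0.48). Under total-count scaling both passed, at 0.82 (adjusted p = 0.0102) and 0.64 (adjusted p = 0.0339).

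ACD, which joins POT1 to the rest of shelterin and recruits telomerase, was lowest in the senescent libraries. It stood at 16.7, 10.6 and 13.5 CPM in primary, 9.04, 7.66 and 8.33 in senescent and 10.9, 12.3 and 13.3 in immortalized libraries. The senescent libraries lie below both other groups, which overlap with each other. ACD fell by 0.70 on the log2 scale (SE 0.18, adjusted p = 0.0106) from primary to senescent and was 0.54 ± 0.18 higher (1.46-fold, adjusted p = 0.0487) in immortalized than in senescent libraries. Immortalized against primary was -0.16 ± 0.18 (adjusted p = 0.484), and 0.17 under total-count scaling. Total-count scaling also ended both calls, with -0.21 (adjusted p = 0.232) and 0.38 (adjusted p = 0.0786). The second call sits close to the threshold and was lost in 14 of 20 other analyses, among them those without any 1 of the senescent or immortalized libraries (0.47 to 0.62, adjusted p = 0.0631 to 0.162). In raw counts ACD is a low gene, at 169 to 271 counts per Simmental-like library, and in RefSeq it overlaps CARMIL2, which was too low to be tested.

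TINF2, the bridge that ties the double-strand binders to ACD and POT1, was highest in the immortalized libraries. It stood at 24.0, 19.6 and 21.7 CPM in primary, 20, 20 and 21.3 in senescent and 27.8, 27.2 and 25.4 in immortalized libraries. The immortalized libraries lie above all 6 others. TINF2 rose by 0.39 ± 0.11 (1.31-fold, adjusted p = 0.026) from senescent to immortalized, but by 0.23 (adjusted p = 0.116) under total-count scaling, and the call was lost in 10 of 20 other analyses, among them those without any 1 of the senescent or immortalized libraries (0.37 to 0.43, adjusted p = 0.0515 to 0.101). Immortalized against primary was 0.30 ± 0.11 (adjusted p = 0.0502), and passed with total-count scaling (0.62, adjusted p = 0.0011), without primary library 1 (0.36, adjusted p = 0.00648) and in 4 other alternatives. Senescent against primary was -0.09 ± 0.11 (adjusted p = 0.50), but passed as higher at 0.39 (adjusted p = 0.0105) under total-count scaling. TINF2 overlaps GMPR2 in RefSeq, whose change from senescent to immortalized was 0.18 ± 0.11 (adjusted p = 0.245).

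POT1 binds the single-stranded overhang and was the least counted of the tested members, with 28, 165 and 75 raw counts in the primary libraries. In CPM these were 1.91, 7.78 and 4.67, against 7.61, 8.12 and 7.75 in senescent and 6.96, 7.04 and 5.06 in immortalized libraries. The primary libraries spread over a wider range than all other libraries together and overlap with both later groups. No comparison passed: 0.69 ± 0.40 for senescent against primary (95% interval -0.22 to 1.60, adjusted p = 0.165), -0.30 ± 0.39 for immortalized against senescent (adjusted p = 0.596) and 0.39 ± 0.40 for immortalized against primary (adjusted p = 0.443). Without primary library 1 the first was 0.30 (adjusted p = 0.248) and the last was -0.01 (adjusted p = 0.97), while without primary library 2 they were 1.23 (adjusted p = 0.0107) and 0.94 (adjusted p = 0.0379), both past the threshold. Under total-count scaling they were 1.10 (adjusted p = 0.065) and 0.64 (adjusted p = 0.268).

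**Figure D2:**
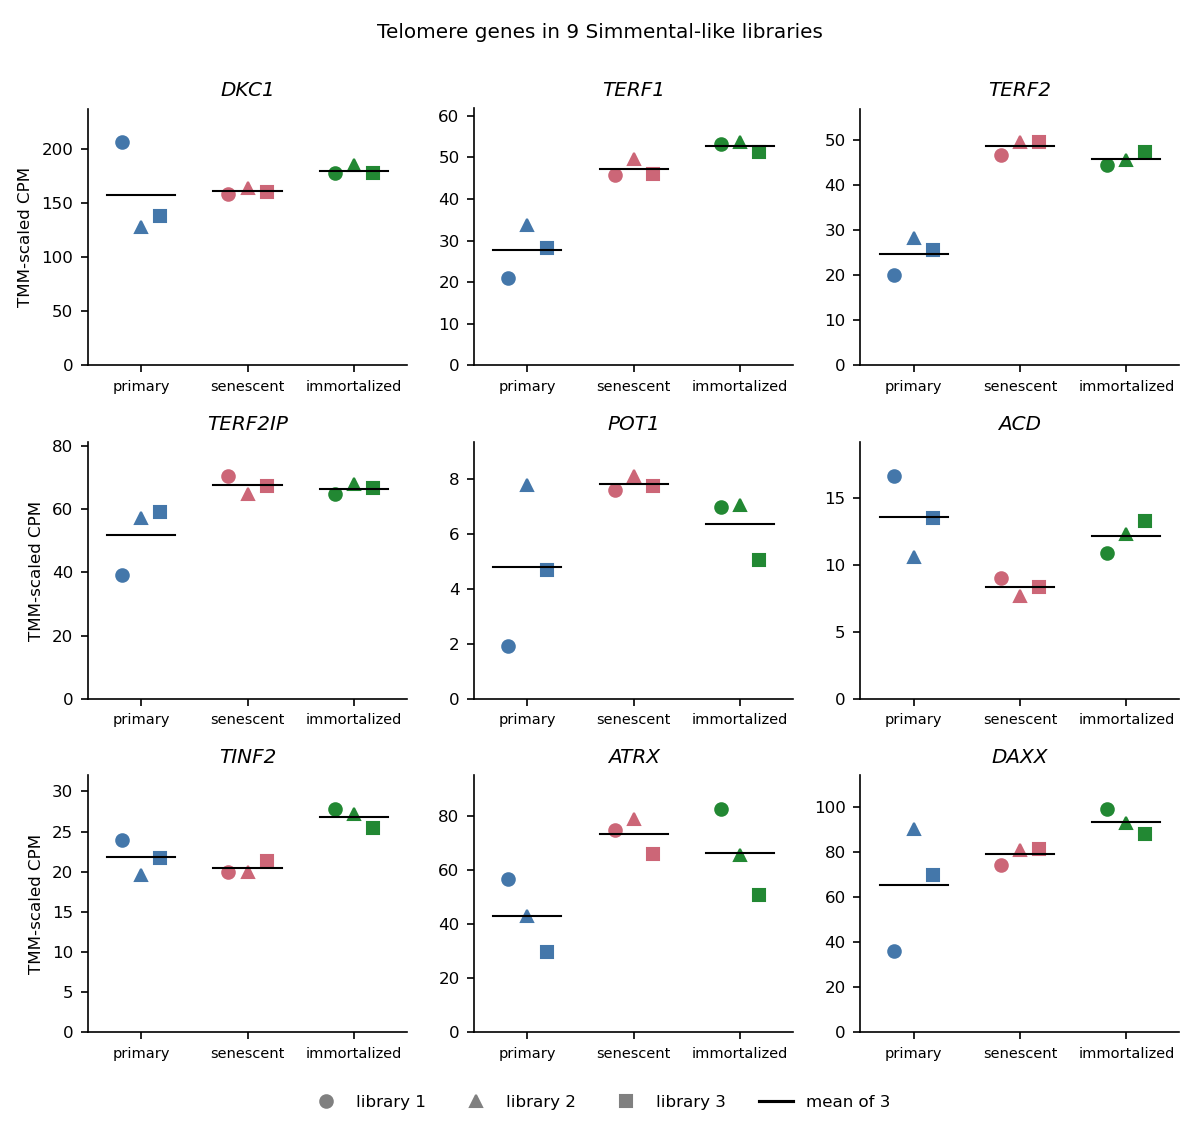
TMM-scaled CPM of the 9 tested members in the 9 Simmental-like libraries, 1 panel a gene, with each y axis starting at 0. Symbols give the library number within a stage and lines the mean of 3 libraries. TERF1 and TERF2 lie above all primary values at both later stages, and ACD dips in the senescent libraries. Primary library 1 is the lowest primary library for POT1 and DAXX and the highest for DKC1.

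ATRX, the remodeller of the ALT suppressor pair, was higher in senescent than in primary libraries. It stood at 56.5, 43.1 and 29.8 CPM in primary, 74.9, 78.8 and 66.0 in senescent and 82.5, 65.6 and 50.6 in immortalized libraries. Primary and senescent libraries do not overlap, while immortalized library 3 falls below primary library 1. ATRX rose by 0.76 ± 0.25 (1.7-fold, adjusted p = 0.028) from primary to senescent. This call was lost without primary library 3 (0.55, adjusted p = 0.0759), without senescent library 1 (0.75, adjusted p = 0.072) and without senescent library 2 (0.71, adjusted p = 0.0808), and under total-count scaling it was 1.26 (adjusted p = 0.00173). Immortalized against primary was 0.62 ± 0.25 (adjusted p = 0.0663). It passed under total-count scaling (0.95, adjusted p = 0.00748), without primary library 1 (0.84, adjusted p = 0.00791), without immortalized library 3 (0.77, adjusted p = 0.0434) and in 3 other alternatives, and was 0.41 without primary library 3. Immortalized against senescent was -0.14 ± 0.25 (adjusted p = 0.689).

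DAXX, the H3.3 chaperone that works with ATRX, passed in no comparison of the 9 libraries. It stood at 36.2, 90.3 and 69.8 CPM in primary, 74.4, 80.9 and 81.4 in senescent and 99.0, 92.9 and 88.1 in immortalized libraries. Primary library 1 was lowest, primary library 2 lay among the immortalized libraries, and all immortalized libraries were above all senescent ones. The changes were 0.27 ± 0.27 for senescent against primary (adjusted p = 0.417), 0.24 ± 0.27 for immortalized against senescent (adjusted p = 0.537) and 0.51 ± 0.27 for immortalized against primary (adjusted p = 0.151). Without primary library 1 the first was -0.03 (adjusted p = 0.807) and the last 0.20 (adjusted p = 0.154). Without primary library 2 they were 0.57 (adjusted p = 0.0644) and 0.81 (adjusted p = 0.0193), and under total-count scaling 0.69 and 0.77, neither past the threshold. Immortalized against senescent passed for DAXX only in the fit of the 6 libraries of those 2 stages alone. For neither gene was the estimate at the immortalized stage below that of the primary culture, and the 95% intervals of that change ran from 0.05 to 1.19 for ATRX and from -0.12 to 1.14 for DAXX.

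With TMM scaling, the share of members that passed was below that of all tested genes in each of the 3 comparisons, while with total-count scaling it was above it in both comparisons with primary. These shares rest on only 9 tested members, and whether they differ from those of all genes was not tested. From primary to senescent, 3 of the 9 tested members rose (TERF1, TERF2 and ATRX) and 1 fell (ACD), where 58.0% of 13091 tested genes passed (28.3% higher and 29.7% lower). From senescent to immortalized, 2 rose (ACD and TINF2) and 0 fell, where 32.5% of genes passed (16.4% higher and 16.1% lower). Between primary and immortalized, 2 were higher (TERF1 and TERF2) and 0 lower, where 50.4% passed (24.9% higher and 25.5% lower). Under total-count scaling 6 members were higher and 0 lower from primary to senescent, beside 45.5% and 14.1% of all tested genes. The counts were 0 and 0 from senescent to immortalized, beside 11.5% and 20.6%, and 6 and 0 between primary and immortalized, beside 35% and 16.0%. TERT did not pass the filter on low counts and is not among the 9. The median change of the 9 was 0.38, 0.16 and 0.39 in these comparisons, beside 0.01, 0.00 and 0.00 over all tested genes. Under total-count scaling it was 0.82, 0.00 and 0.64, beside 0.47, -0.16 and 0.30. Groups did not overlap for 5, 6 and 4 of the 9, against 66.7%, 70.9% and 56.4% of all tested genes. Without primary library 1, 6, 3 and 5 members passed, and so did 8990, 7792 and 8218 of all genes. The comparisons share libraries in pairs, so their values are given side by side only.

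**Figure D3:**
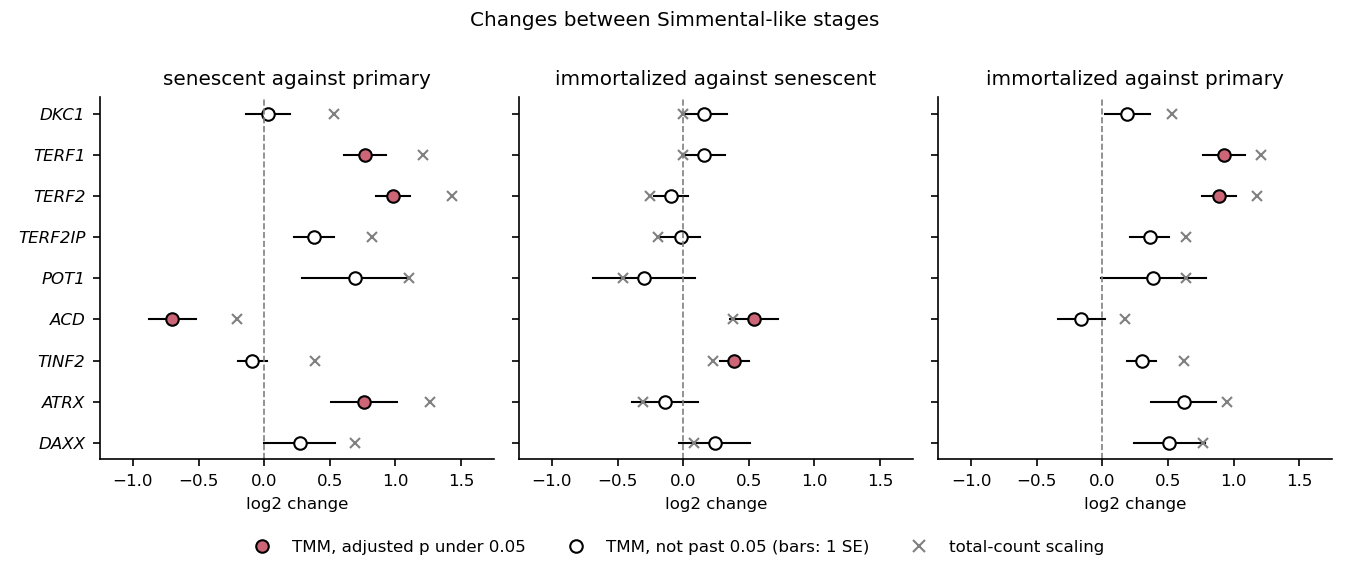
Log2 change of the 9 tested members in the 3 Simmental-like comparisons. Circles give the TMM-scaled change with bars of 1 SE, filled where the adjusted p is under 0.05, and crosses give the change under total-count scaling. TERF1 and TERF2 are filled in both comparisons with primary. For senescent against primary all 9 crosses lie to the right of the circles, and 8 lie above 0.

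The proliferation genes MKI67, TOP2A, CCNB1, PCNA and MCM2 together took 0.0756% to 0.111% of the counts in primary, 0.130% to 0.136% in senescent and 0.158% to 0.170% in immortalized libraries. Each senescent share was above each primary one, so these RNA shares do not by themselves bear out the senescent label. Growth arrest was not measured here. Shares by column total also hide unlike members. From primary to senescent TOP2A rose (0.69, adjusted p = 0.0151), PCNA (-1.14, adjusted p = 0.00105, also lower under total-count scaling) and MCM2 (-0.38, adjusted p = 0.00707, but 0.10 under total-count scaling) fell, and MKI67 (0.43) and CCNB1 (-0.18) did not pass. From senescent to immortalized MCM2 (1.07) and CCNB1 (0.52) rose, and the part of proliferation in the member changes was not tested.

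Some members moved together across the 9 Simmental-like libraries, which share stage and scaling, and others did not (DKC1 with TERF1, Pearson r = 0.0524). TERF1 and TERF2 had the highest correlation of log2 CPM among the 36 pairs (Pearson r = 0.964), followed by TERF1 with TERF2IP (0.889) and POT1 with DAXX (0.886). ACD ran opposite to POT1 (-0.833) and TERF2 (-0.701). Primary library 1 was the lowest library for TERF1, TERF2, TERF2IP, POT1 and DAXX and the highest for ACD. POT1 stood there at 1.91 CPM against 4.67 to 8.12 elsewhere, and DAXX at 36.2 against 69.8 to 99. Correlations without that library were not computed, so how far they rest on it is not known. The tested genes most like TERF1 were BRD1 (0.999) and CKAP5 (0.998), and those most like TERF2 were ODC1 (0.995) and ZFHX2 (0.994). For ACD they were SNRNP25 (0.989) and SNRPA (0.987), for TINF2 EI24 (0.983) and KCTD1 (0.981), and for ATRX ARHGAP32 (0.977) and OSBPL6 (0.966). Such likeness is common here: 477 of 12026 genes had r over 0.95 with TERF1 and 413 with TERF2, but 3 had it with ATRX.

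Partners of telomerase help to assemble the enzyme or mature its RNA, and the direction of their calls depended on the scaling. They are to be read against the shares of all tested genes given above for each scaling. Of 16 genes, 3 rose and 4 fell from primary to senescent (median -0.18), beside 28.3% and 29.7% of all tested genes. From senescent to immortalized 4 rose and 1 fell (0.23), beside 16.4% and 16.1%. In immortalized against primary libraries 4 were higher and 2 lower (0.23), beside 24.9% and 25.5%. Under total-count scaling the counts were 6 and 0, 2 and 2, and 9 and 0. Of all tested genes, 45.5%, 11.5% and 35% were higher and 14.1%, 20.6% and 16.0% lower under that scaling. Without primary library 1 the counts were 4 and 4, 8 and 2, and 9 and 2. In that fit 4466, 3813 and 4049 of all genes passed as higher and 4524, 3979 and 4169 as lower. PAPD5, which adenylates the telomerase RNA, rose from 7.64 ± 3.94 to 22.6 ± 2.35 CPM (mean ± SD, n = 3, 1.55 ± 0.36, adjusted p = 0.00678) from primary to senescent. WRAP53, which brings telomerase to Cajal bodies, fell (-0.70 ± 0.23, adjusted p = 0.0274), as did COIL, the scaffold of those bodies (-0.60 ± 0.10, adjusted p = 0.00136), and LARP7 (-1.33 ± 0.42, adjusted p = 0.0259). These 3 falls did not pass under total-count scaling (-0.19, -0.13 and -0.77), and LARP7 stood at 238 CPM in primary library 1 against 64.3 and 88.1 in the other primary libraries. WRAP53 likewise stood at 86.8 CPM there against 43.4 and 54.2. Without that library LARP7 was -0.56 (adjusted p = 0.00429) and WRAP53 -0.38 (adjusted p = 0.0105). Each of these 2 calls was lost in 8 of 20 alternatives, among them those without any 1 senescent library (adjusted p = 0.0657 to 0.0818).

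In the immortalized line the assembly ATPase RUVBL1 was at 468 ± 40.5 CPM against 226 ± 4.21 in senescent libraries (1.05 ± 0.13, adjusted p = 0.00044) and 282 ± 45.1 in primary ones (0.73 ± 0.13, adjusted p = 0.00158). COIL (0.63 ± 0.10) and the chaperone PTGES3 (0.53 ± 0.09) rose from senescent to immortalized, the latter not under total-count scaling (adjusted p = 0.0512). SHQ1, the chaperone of DKC1, was 0.75 ± 0.12 above primary (adjusted p = 0.00088). PARN, the nuclease that trims the telomerase RNA, was lower in the immortalized line than at either earlier stage, at 24.1 ± 1.88 CPM against 41.4 ± 0.524 in senescent (-0.78 ± 0.13) and 40.8 ± 5.99 in primary libraries (-0.76 ± 0.13, adjusted p = 0.058 under total-count scaling).

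Among genes of the CST complex and telomere replication, calls were mixed. Of 18 genes, 3 rose and 7 fell from primary to senescent, 3 rose and 2 fell from senescent to immortalized, and 4 were higher and 6 lower in immortalized than in primary libraries, with medians of -0.25, -0.01 and -0.18. Of all tested genes, 28.3%, 16.4% and 24.9% were higher and 29.7%, 16.1% and 25.5% lower. Under total-count scaling, where all genes lean to higher against primary, the counts were 5 and 1, 3 and 3, and 5 and 2 and the medians 0.23, -0.17 and 0.10. Of all tested genes, 45.5%, 11.5% and 35% were higher and 14.1%, 20.6% and 16.0% lower under that scaling. Without primary library 1 the counts were 5 and 9, 4 and 5, and 5 and 7. In that fit 4466, 3813 and 4049 of all genes passed as higher and 4524, 3979 and 4169 as lower. CST ends telomere extension and fills in the complementary strand, and its subunits, named after their values were seen, were lower at both later stages. OBFC1 (STN1) fell from 17.8 ± 1.44 CPM in primary to 10 ± 0.0563 in senescent and 10.7 ± 0.732 in immortalized libraries (-0.83 ± 0.12 and -0.74 ± 0.12, adjusted p = 0.00049 and adjusted p = 0.0009). CTC1 fell from 19.2 ± 2.7 to 12 ± 0.292 and 12.5 ± 0.602 (-0.68 ± 0.13 and -0.62 ± 0.13). TEN1 fell from 28.7 ± 10.9 to 15.5 ± 1.22 and 17.6 ± 2.06 (-0.88 ± 0.25 and -0.70 ± 0.25, adjusted p = 0.0162 and adjusted p = 0.0437), with overlap between primary and immortalized libraries. TEN1 stood at 40.6 CPM in primary library 1 against 19.2 and 26.2 in the other primary libraries, and without that library its change to senescent was -0.55 (adjusted p = 0.00888). That call was lost without senescent library 2 (-0.83, adjusted p = 0.0579). Under total-count scaling all 6 of these changes stayed below 0, from -0.20 to -0.44, and OBFC1 in the immortalized line alone passed (adjusted p = 0.0319).

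TNKS, the tankyrase that releases TERF1 from telomeres, rose from 11.5 ± 8.47 to 37.8 ± 3.64 CPM from primary to senescent (1.70 ± 0.49, adjusted p = 0.0174), a call lost without primary library 3 (1.51, adjusted p = 0.0644). RIF1, which acts in replication timing and end protection, rose from 32.8 ± 13.2 to 101 ± 7.79 (1.62 ± 0.26, adjusted p = 0.00114), then fell to 58.5 ± 9.3 in the immortalized line (-0.78 ± 0.26, adjusted p = 0.0464). This fall was lost in 11 of 20 alternatives, among them those without primary library 3 (-0.78, adjusted p = 0.0621) or any 1 senescent or immortalized library (-0.69 to -0.91, adjusted p = 0.0611 to 0.153). HNRNPA1, a telomere RNA binder among many other roles, fell by 1.02 from primary to senescent and rose by 0.71 from senescent to immortalized. DCLRE1B, the nuclease that TERF2 brings to new ends, was lower in the immortalized line than in senescent (-0.91 ± 0.24) and primary libraries (-1.19 ± 0.24). The first of these was lost in 6 of 20 alternatives, among them those without senescent library 2 or 3 or immortalized library 2 or 3 (adjusted p = 0.053 to 0.0783). PRIM1, a primase subunit, rose by 0.89 ± 0.11 from senescent to immortalized.

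ALT-associated factors were more often higher than lower against primary. Of 23 tested genes, 8 rose and 3 fell from primary to senescent, where 28.3% of all tested genes were called higher and 29.7% lower. From senescent to immortalized 5 rose and 2 fell, beside 16.4% and 16.1%. In immortalized against primary libraries 12 were higher and 3 lower, beside 24.9% and 25.5%. The medians were 0.28, 0.07 and 0.43. Under total-count scaling the counts were 16 and 0, 2 and 3, and 16 and 0. Of all tested genes, 45.5%, 11.5% and 35% were higher and 14.1%, 20.6% and 16.0% lower under that scaling. Without primary library 1 the counts were 11 and 4, 8 and 4, and 15 and 3. In that fit 4466, 3813 and 4049 of all genes passed as higher and 4524, 3979 and 4169 as lower. ZNF827, which brings a repressor complex to ALT telomeres, rose from 2.49 ± 1.16 to 16.5 ± 1.98 CPM from primary to senescent (2.70 ± 0.31, adjusted p = 0.00019) and fell to 7.72 ± 1.48 in the immortalized line (-1.10 ± 0.29, adjusted p = 0.0192), still 1.61 ± 0.31 above primary. The fall was lost in 6 of 20 alternatives, among them those without senescent library 1 or 2 or immortalized library 2 or 3 (-0.97 to -1.08, adjusted p = 0.0655 to 0.0818). The orphan receptors NR2C2 and NR2F2, known to bind variant repeats at ALT telomeres, rose by 1.07 ± 0.23 and 0.93 ± 0.10 from primary to senescent. MRE11A, a nuclease of break repair, rose by 1.11 ± 0.28.

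From senescent to immortalized, BLM, a helicase of recombination, rose from 21.9 ± 1.09 to 33.1 ± 2.09 CPM (0.59 ± 0.12, adjusted p = 0.00498), but did not pass under total-count scaling (adjusted p = 0.0756). FANCD2, a fork repair gene, was 1.02 ± 0.09 higher in immortalized than in primary libraries (adjusted p = 3.2e-05). These genes also serve S phase in any dividing cell, and of the proliferation genes MCM2 (0.69), TOP2A (1.00) and CCNB1 (0.34) were also higher in immortalized than in primary libraries, PCNA was lower (-0.76, adjusted p = 0.00813) and MKI67 did not pass (0.62). Their part in these changes was not tested.

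**Figure D4:**
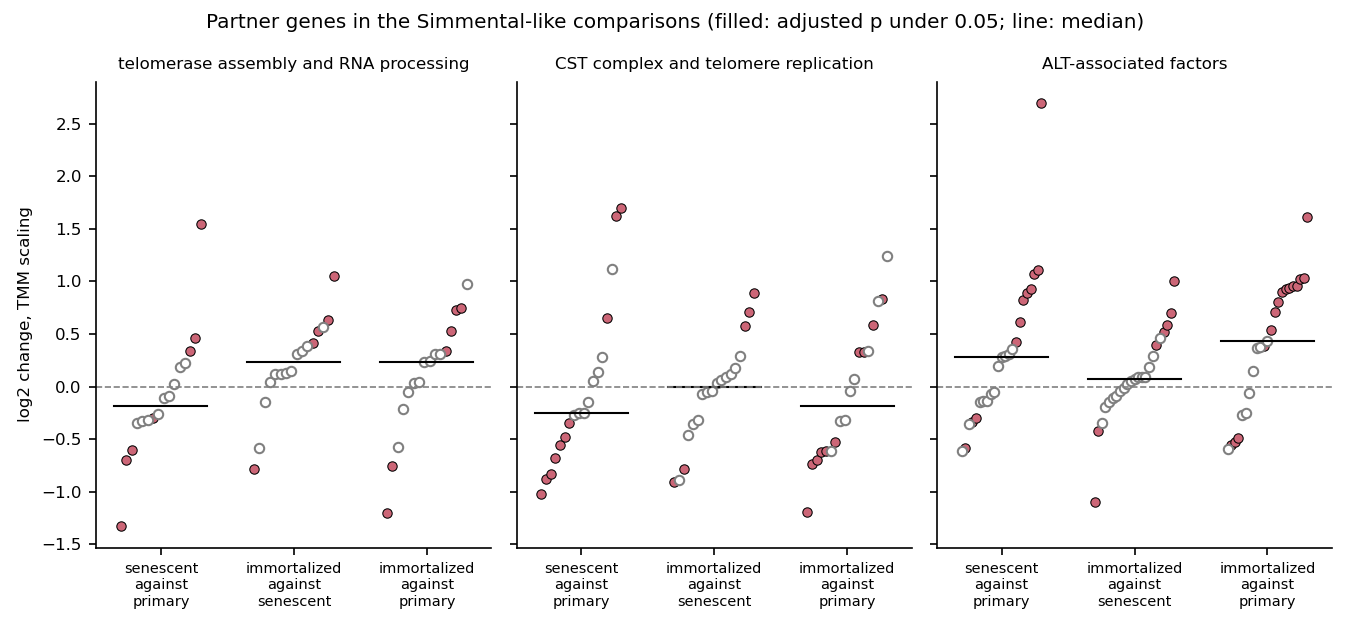
Log2 change (TMM scaling) of the tested genes of 3 partner lists in the 3 Simmental-like comparisons. Each point is a gene, ranked within its column, filled where the adjusted p is under 0.05, and lines give the median. ALT-associated factors have a median of 0.43 for immortalized against primary, and CST and replication genes -0.25 for senescent against primary.

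In the Holstein-like libraries, read singly and in CPM by column total, the members varied within stages as well as between them. DKC1 lay below the Simmental-like range (117 to 192) in all 9 libraries, from 14.0 in primary library 3 to 85.2 in immortalized library 2. ACD lay below its range (8.89 to 13.7) in 7 of 9, and TINF2 below its range (17.4 to 28.7) in 6 of 9. ACD reached 11.3 and 13.0 CPM in immortalized libraries 2 and 3 and 0.682 to 4.76 in the other 7, where the primary libraries had only 3, 1 and 1 counts. ATRX lay inside the Simmental-like range (26.0 to 91.4) in all 9 libraries and DAXX (26.2 to 102) in 8 of 9.

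The 3 libraries labelled Holstein-like immortalized did not resemble each other. TERF2 stood at 22.0, 45.3 and 21.2 CPM, TINF2 at 7.46, 18.4 and 17.2, DKC1 at 35.6, 85.2 and 52.8, and ATRX at 28.1, 73.0 and 72.2. Library 1, in which liver genes took 12.7% of the counts, was lowest of the 3 for TINF2, DKC1 and ATRX and fell below the Simmental-like range for 5 of 9 members. In senescent libraries 2 and 3, also rich in liver genes (13.5% and 12.8%), TERF1 was at 12.2 and 16.9 CPM and TINF2 at 7.90 and 9.98. Senescent library 1, with heart genes at 3.20% and skeletal muscle genes at 1.28%, had TERF1 at 22.9 and TINF2 at 6.11. The primary libraries, with skeletal muscle genes at 16.8% to 16.9%, had DKC1 at 14.0 to 23.9 and TERF2 at 12.3 to 15.8. Among themselves these 3 primary libraries were close to sampling noise, at a chi-square of 1.2 to 1.22 per gene. No stage test is given for this line, and the part of the organ transcripts in these levels was not tested.

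**Figure D5:**
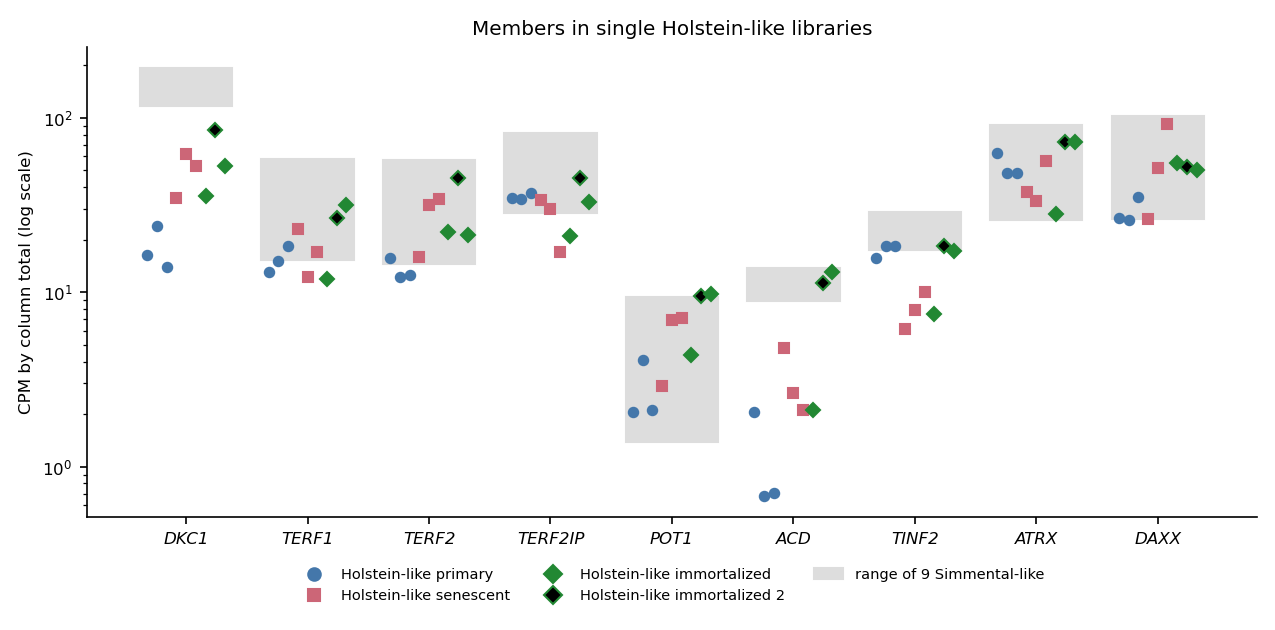
CPM by column total (log scale) of the 9 members in each of the 9 Holstein-like libraries. Grey boxes give the range of the 9 Simmental-like libraries, colours and symbols the stage label, and the black diamond immortalized library 2. DKC1 lies below its box in every library, and the ACD points of the primary libraries rest on 3, 1 and 1 counts.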

How the data were processed

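The authors deposited salmon expected counts merged to genes, by the table's own name, with genome build UMD3.1, per the submitters' processing notes. No salmon version, annotation or strand is given in the sources used here. RNA was extracted with RNeasy kits and read as single reads, per the labels' protocols. Values were rounded, since 1.01% to 7.18% per library had decimals. The 9 Simmental-like libraries were fitted with edgeR 4.0.16 in R 4.3.3 (filterByExpr, TMM, robust quasi-likelihood F-test, Benjamini-Hochberg over 13091 genes, threshold 0.05). Each SE came from the log2 change and its F value. Column headers were matched to sample descriptions, and all columns were assigned. Partner genes with given names were found for 16 of 18, 18 of 18 and 24 of 27 symbols. Per list and comparison, up to 4 genes past the threshold without overlap of groups and with the largest change are named, and for each changed member the 2 most correlated genes (log2 CPM, prior count 2). Exceptions are marked in the text. Some genes that this rule names are not reported here. RefSeq (ARS-UCD2.0) served for names and overlaps only, and all 10 members matched. The members and lists were chosen with earlier results of these data known. Alternatives were other scalings, filters, DESeq2 1.42.0, limma-voom 3.58.1, other sample sets, a replicate block, and leaving out or summing libraries. On data simulated for senescent against primary (12867 genes), 66 of 100 genes changed 2-fold and 100 of 100 changed 4-fold were recovered, with 9 false calls. In the data themselves 58.0% of 13091 genes passed, a far larger share than was changed in the simulation. Because the adjusted p depends on that share, the recovery and false calls need not hold for the data.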

Additional observations from a re-analysis of the deposited data

Results flagged for a closer look

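For 3 members the lines moved in opposite directions from primary to senescent, with all senescent libraries of a line on one side of its primary mean. On CPM by column total, the Holstein-like minus Simmental-like difference of log2 change was -1.22 for TERF2IP, 1.68 for ACD and -1.51 for TINF2. The difference between lines was not tested. With TMM scaling the Simmental-like change of TINF2 was -0.09, so its opposite direction depends on the scaling. The Simmental-like fall of ACD did not pass under total-count scaling (-0.21, adjusted p = 0.232). By column total its primary and senescent libraries overlap, at 9.7 to 12.1 and 8.89 to 10.4 CPM. The Holstein-like primary libraries carry skeletal muscle genes and the senescent ones heart or liver genes, so these values set unlike tissues side by side, and ACD rests on 3, 1 and 1 counts in the Holstein-like primary libraries.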

How the results depend on the processing

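TERF2 from primary to senescent and TERF1 from primary to immortalized kept direction and call in all 20 alternatives, while the rise of TERF1 to senescent (adjusted p = 0.065) and of TERF2 to immortalized (adjusted p = 0.0654) ended in the fit of all 18 libraries alone. Over the 9 members, 464 results kept direction and call, 33 lost and 33 gained a call, and 10 changed sign. With all 18 libraries in 1 fit, 2025, 416 and 1800 genes and 1, 0 and 1 members changed for senescent against primary, immortalized against senescent and immortalized against primary. That fit also ended 29 of the 36 calls of partner genes picked by the naming rule. For immortalized against senescent, the 6 libraries of those stages alone gave 8600 genes and 4 members (DKC1, ACD, TINF2 and DAXX). There, RLE scaling, no filter and the stricter filter gave 1 member each, and total-count scaling, senescent libraries 1 and 2 summed and the replicate block gave 0. For immortalized against primary, upper-quartile scaling gave 4, DESeq2 gave 5 and total-count scaling gave 6 members. Leaving out 1 library at a time gave 3 to 6 members for senescent against primary, 0 to 3 members and 2888 to 7792 genes for immortalized against senescent, and 2 to 5 members for immortalized against primary, with the highest value without primary library 1 (equalled without primary library 2 in both comparisons with primary).

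Total-count scaling turned TINF2 from primary to senescent to 0.39 and ACD in immortalized against primary to 0.17, and brought DKC1 and TERF1 in immortalized against senescent to 0.00. Leaving out 1 library changed the sign of DKC1 (-0.10 to 0.26) and DAXX (-0.03 to 0.57) in senescent against primary, TERF2IP (-0.05 to 0.01) and ATRX (-0.33 to 0.01) in immortalized against senescent, and POT1 (-0.01 to 0.94) in immortalized against primary. The cause was not tested. The replicate block gave 4, 0 and 3 members and 6742, 3468 and 5750 genes. Same-numbered libraries correlated at -0.50 to 0.18 after group means were removed, and not every library correlated best with its own number. Pairing by number was thus not shown, and 3 libraries a group are too few to settle it. Levels per transcript length were not run. Depth limits TERT in all libraries and ACD in the Holstein-like primary ones.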
